A study of Mus musculus with 4 samples.

Results

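The 54 genes described here are the cyclins, cyclin-dependent kinases (CDKs), other mitotic kinases, phosphatases, inhibitors and anaphase-promoting complex (APC) genes that drive the cell cycle, taken from the 24411 genes listed in each library by their symbols alone: cyclins A, B, D and E, Cdc25a to Cdc25c, the Anapc subunits, 5 CDKs, the Aurora and Polo-like kinases, the Bub genes, and 15 genes listed by name, from Wee1 to Rb1. The symbol rule also took in Ccnb1ip1, which is no cyclin but a ubiquitin ligase of meiotic crossing over. RNA was measured by RNA-seq in late two-cell mouse embryos of the ICR strain. The DMSO group holds 2 libraries of embryos cultured with the solvent, and the MYC-inhibited group 2 libraries of embryos cultured with 6 µM 10074-G5, a small molecule that blocks pairing of the transcription factor MYC with MAX. Each library pooled 10 whole embryos collected 36 h post-insemination (hpi); both groups came from in vitro fertilization and the labels name no genetic change, and treatment began at 3 hpi by the sample labels and at 6 hpi by the design text. The comparison asked how blocking MYC-MAX pairing altered transcripts of the second cell cycle.

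A cyclin binds and activates a CDK. D- and E-type cyclins with CDK4, CDK6 and CDK2 carry cells from G1 into S phase, where RB1 holds back E2F factors until it is phosphorylated, and A- and B-type cyclins with CDK1 carry them from G2 into mitosis. WEE1, WEE2 and PKMYT1 place inhibitory phosphates on CDK1 that CDC25 phosphatases remove, the spindle checkpoint holds the APC inactive until chromosomes are attached, and the APC then marks cyclin B for destruction. The mouse two-cell stage has a short G1 and a long G2, and much of its mitotic RNA and protein comes from the oocyte, where MOS, FBXO43, WEE2 and cyclin B3 control meiosis.

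Total expected counts were 18206584 to 20718690 per library. All 54 genes passed the filter on low counts, which kept 13549 genes in all. DMSO replicate 1 stood apart. Across the 13549 genes, log2 CPM (counts scaled to the size of the library) correlated at 0.887 between the DMSO replicates and at 0.931 between the MYC-inhibited ones, while DMSO replicate 2 correlated with the MYC-inhibited libraries at 0.912 and 0.926. The DMSO replicates differed by more than 2-fold for 18 of the 54 genes and 42.2% of all tested genes, and the MYC-inhibited replicates for 5 of the 54 and 20.6% of all. DMSO replicate 1 was farther than DMSO replicate 2 from the mean of the MYC-inhibited libraries for 45 of the 54 and for 10534 of the 13549 genes, so log2 fold changes that depended on it are also given without it. Markers of the two-cell stage were expressed in all libraries, but their summed CPM was 1689 in DMSO replicate 1 against 4851 in DMSO replicate 2, 6297 in MYC-inhibited replicate 1 and 6311 in MYC-inhibited replicate 2. Of 14 cumulus cell markers, 5 had no count in any library, and the list summed to 147 to 179 CPM. Most of that sum was Nr5a2 (40.4 to 111 CPM) and Serpine2 (32.8 to 125 CPM). No other marker of the list was above 5.94 CPM, the level of Cyp19a1 in MYC-inhibited replicate 1. Whole embryos were pooled, so fewer cells of one kind and less RNA per cell cannot be told apart, and p-values measure only the spread between these libraries.

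The 3 largest differences by test were lower levels of Bub3, Cdc20 and Anapc7 in the MYC-inhibited libraries: a spindle checkpoint protein, the APC activator that this checkpoint restrains, and an APC subunit. Their mean CPM was 0.361, 0.282 and 0.364 times the DMSO mean, and without DMSO replicate 1 their log2 fold changes were -1.34, -0.85 and -0.95. Ccnb1, Cdk1, Aurka and Cdc25c also lay lower, whereas Ttk, Cdkn1c and the oocyte kinase Wee2 lay higher and the G1/S genes had no common direction. With edgeR's quasi-likelihood test, adjusted over all genes, 0 of the 54 passed the thresholds of a log2 fold change beyond 1 and an adjusted p under 0.05, and so did 0% of all genes in either direction, with a smallest adjusted p of 0.333. At an unadjusted p under 0.05 edgeR gave 2 of the 54 higher (Cdkn1c and Ttk), against 4.72% of all genes, and 8 lower (Bub3, Cdk1, Aurka, Cdc25c, Cdc20, Anapc7, Aurkc and Cdk7), against 10.1%. With DESeq2, the other count model, at the same adjusted thresholds, Bub3, Cdc20 and Anapc7 were called lower. They were 5.56% of the 54, against 2.4% of all genes with a count and 3.23% of the 13549 that, like the 54, passed the filter. DESeq2 called 0 of the 54 higher, against 0.478% of all genes with a count. edgeR with no filter on low counts called the same 3 lower, against 2.63% of all genes, and 0 higher against 0.906%. Without DMSO replicate 1, edgeR called 0 of the 54 in either direction, against 0.00679% of all genes in each direction. The 2 groups did not overlap in CPM for 27 of the 54 genes, below the 57.3% of all genes.

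**Figure D1:**
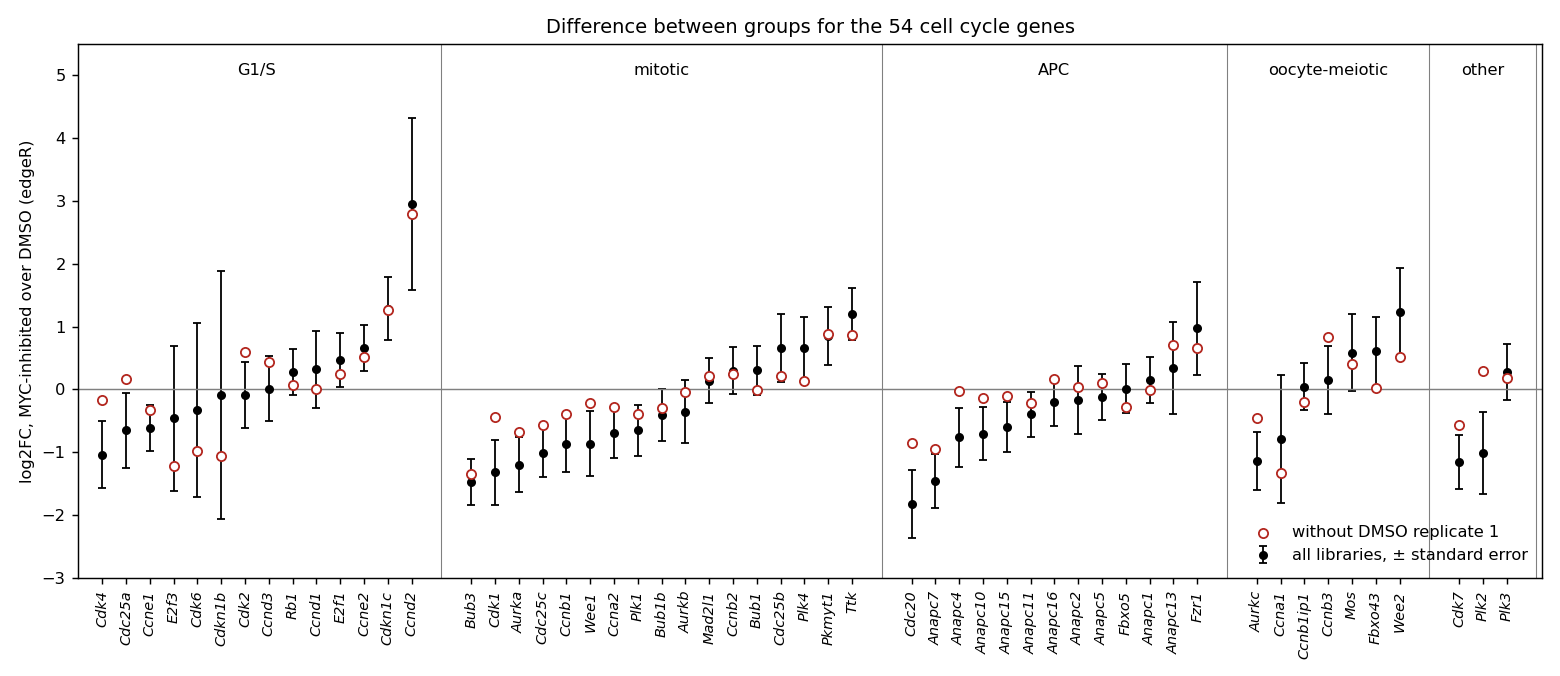
Log2 fold change (MYC-inhibited over DMSO, y axis) of each of the 54 genes, grouped by class along the x axis. Filled points and bars give the value from all 4 libraries with its standard error, and open red circles the value without DMSO replicate 1. Bub3 and Cdkn1c keep nearly the same value without that library, -1.34 and 1.27, while Cdc20 and Cdk1 move toward 0, to -0.85 and -0.45.

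The classes compared were 14 G1/S genes, 17 mitotic genes, 13 APC genes and 7 oocyte-meiotic genes; Cdk7, Plk2 and Plk3 fall in none. The median log2 fold change was -0.04 for G1/S, with 7 genes lower and 7 higher, and -0.41 for mitotic genes, with 10 lower and 7 higher. It was -0.20 for APC genes, with 9 lower, and 0.15 for oocyte-meiotic genes, with 5 of 7 higher. Over all genes the median was 0.04, and 48.5% were lower. Without DMSO replicate 1, 28 of the 54 were lower, against 47% of all genes. The class medians were then 0.12 for G1/S, -0.21 for mitotic, -0.02 for APC and 0.02 for oocyte-meiotic genes. Most of the distance between the mitotic and oocyte-meiotic classes thus came with that library, while that between G1/S and mitotic genes changed little. The G1/S median was 0.14 when libraries were scaled by their totals, so its direction depended on the scaling. These medians describe the lists and carry no test.

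**Figure D2:**
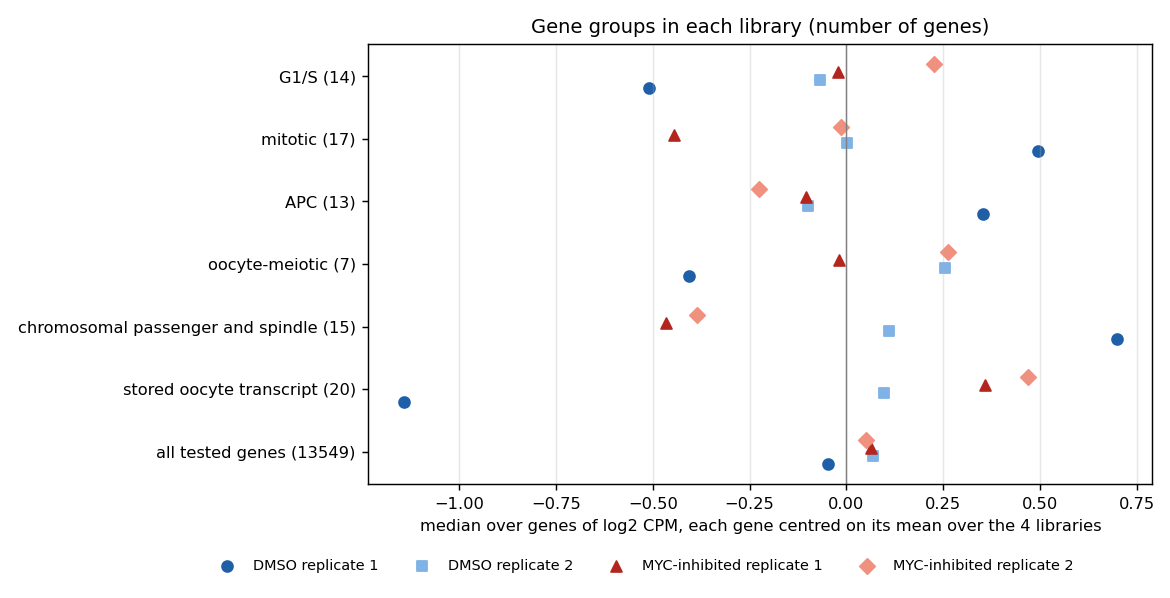
Median over each gene list (y axis) of log2 CPM centred on each gene's mean (x axis), 1 point per library. Of the 4 classes compared, the mitotic genes have the highest value in DMSO replicate 1, at 0.49. The G1/S and oocyte-meiotic genes have the lowest there, at -0.51 and -0.41. The other 3 libraries lie between -0.45 and 0.26 for these classes.

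Among G1 cyclins, Ccnd3 (chr17:47505051-47599689) and Ccnd1 (chr7:144929931-144939831), which partner CDK4 and CDK6, had small log2 fold changes. Ccnd3 had 14.7 and 8.90 CPM with DMSO and 12.3 and 11.5 CPM with the inhibitor, a log2 fold change of 0.01 that was just below 0 under DESeq2's scaling and 0.43 without DMSO replicate 1. Ccnd1 had 4.79 and 8.15 CPM against 6.22 and 9.97 CPM, with a log2 fold change of 0.32 (SE 0.61, edgeR adjusted p = 0.82), and of 0.01 without DMSO replicate 1. For both genes the groups overlapped.

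Ccnd2 (chr6:127125162-127152188), the third D cyclin, was nearly absent with DMSO, with 4 and 6 counts (0.240 and 0.318 CPM), and had 53 and 41 counts (2.46 and 1.96 CPM) with the inhibitor. Both MYC-inhibited libraries were above both DMSO libraries, and the log2 fold change was 2.96 (SE 1.37, edgeR adjusted p = 0.35). The gene passed the count filter only through the MYC-inhibited libraries, so it had to differ there. It remained the scarcest of the 54 genes per transcript length, at a mean of 0.237 FPKM (fragments scaled to transcript length and library size), and supplied at most 4.79% of D cyclin FPKM in any library.

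The E cyclins, which activate CDK2 for S phase, had log2 fold changes of opposite sign. Ccne1 (chr7:38097984-38107490) had 269 and 191 CPM with DMSO and 139 and 162 CPM with the inhibitor, a log2 fold change of -0.62 (SE 0.37, edgeR adjusted p = 0.426), and of -0.33 without DMSO replicate 1. Ccne2 (chr4:11190433-11204779) had 169 and 216 CPM against 348 and 263 CPM, a log2 fold change of 0.67 (SE 0.37, edgeR adjusted p = 0.403), and of 0.51 without DMSO replicate 1. The groups did not overlap for either gene. The summed cyclin E level stayed between 194 and 217 FPKM, while the ratio of Ccne2 to Ccne1 FPKM was 0.382 and 0.686 with DMSO and 1.53 and 0.988 with the inhibitor. An exact two-sided permutation test of that ratio gave p = 0.333, the smallest that 2 against 2 libraries allow. Ccne2 overlaps Ints8 in the annotation, and reads of overlapping genes cannot be told apart where strand is not used. Other genes described here also overlap a neighbour. Among them are Ccnd1 (LTO1), Ccnd3 (Bysl), Cdk2 (Pmel), Cdk4 (Tspan31), E2f1 (Necab3), Ccna2 (Exosc9), Aurka (Cstf1), Cdc25c (Gm3550) and Wee2 (Dennd11).

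Cdk4 (chr10:127063535-127067288) and Cdk2 (chr10:128697938-128705051) followed DMSO replicate 1. Cdk4 had 71.2 CPM there, against 27 CPM in DMSO replicate 2 and 27.1 and 20.7 CPM with the inhibitor, and its log2 fold change of -1.04 became -0.16 without that library. Cdk2 had 25.9 and 11.97 CPM with DMSO and 15.2 and 20.5 CPM with the inhibitor, a log2 fold change of -0.09 that turned to 0.59 without DMSO replicate 1 and to 0.10 with library totals as the scale. Cdc25a (chr9:109875518-109893895), the phosphatase that activates CDK2, had 23.8 and 9.58 CPM against 13.03 and 8.20 CPM. For all 3 genes DMSO replicate 1 was the highest library and the groups overlapped.

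Of the G1 inhibitors, Cdkn1c (chr7:143458339-143461059), which encodes the CDK inhibitor p57, had 6.29 and 6.57 CPM with DMSO and 17.2 and 14.2 CPM with the inhibitor. Both MYC-inhibited libraries were above both DMSO libraries, and the replicates of each group lay close together. Its log2 fold change was 1.28 (SE 0.50), with an edgeR adjusted p of 0.333 and a DESeq2 adjusted p of 0.151, and it stayed between 1.18 and 1.42 when any library was left out. Cdkn1b, which encodes p27, had no count in DMSO replicate 1, where 3 counts would be 0.180 CPM, and at most 1.96 CPM elsewhere. E2f1 (chr2:154559400-154569892), a transcriptional activator of S phase genes, had 18.0 and 26.1 CPM with DMSO and 30.7 and 30.3 CPM with the inhibitor, a log2 fold change of 0.47 (SE 0.43) that was 0.24 without DMSO replicate 1.

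Ccnb1 (chr13:100778739-100786486), the main mitotic cyclin, had the highest level per length of all 54 genes, at a mean of 1778 FPKM. It had 6145 and 3479 CPM with DMSO and 2368 and 2885 CPM with the inhibitor. The groups did not overlap, and the log2 fold change of -0.87 (SE 0.44, edgeR adjusted p = 0.377) was -0.39 without DMSO replicate 1. Ccna2 (chr3:36564865-36573038), which acts in S phase and in entry into mitosis, had 955 and 588 CPM against 438 and 516 CPM, also without overlap, and its log2 fold change of -0.69 was -0.29 without DMSO replicate 1. Ccnb2 (chr9:70407689-70421554) differed in sign, though its groups overlapped: it had 73.9 and 82.2 CPM with DMSO and 78.6 and 114 CPM with the inhibitor. The ratio of Ccnb1 to Ccnb2 FPKM was 51.5 and 26.2 with DMSO and 18.7 and 15.7 with the inhibitor (exact permutation p = 0.333).

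Cdk1 (chr10:69335146-69352912), the kinase that these cyclins activate, had 1552 and 593 CPM with DMSO and 369 and 492 CPM with the inhibitor. Both MYC-inhibited libraries were below both DMSO libraries, and DMSO replicate 1 was far above the other 3. The difference had a log2 fold change of -1.32 (SE 0.52) with an edgeR adjusted p of 0.333 and a DESeq2 adjusted p of 0.0786, and it was -0.45 without that library. Its promoter is shown because it carries motifs of both kinds known from cell cycle genes. The 250 bases before the RefSeq start site (GRCm38.p6, chr10:69352913-69353162, minus strand, 5′ to 3′) hold an E2F motif at position -131 and 2 copies of the cell cycle homology region (CHR), the site read by the DREAM and MuvB complexes, at -71 and -15, all in capitals. Positions give a motif's first base relative to the start site.
Cdk1: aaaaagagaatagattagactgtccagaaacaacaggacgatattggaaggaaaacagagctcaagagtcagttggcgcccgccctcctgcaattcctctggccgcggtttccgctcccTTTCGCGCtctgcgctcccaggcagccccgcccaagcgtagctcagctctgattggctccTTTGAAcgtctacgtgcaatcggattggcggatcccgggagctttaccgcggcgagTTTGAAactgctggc

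Windows of 300 bases (250 before and 50 after the start) were matched for 42 of the 54 genes and searched on both strands for the CHR (TTTGAA or TTCGAA), the E2F motif (TTTCCCGC, TTTGGCGC, TTTCGCGC or TTTGCCGC) and CACGTG, the E-box that MYC-MAX dimers bind. A CHR was found in 9 of 12 mitotic genes (75%), 4 of 13 APC genes (30.8%), 1 of 9 G1/S genes and 0 of 5 oocyte-meiotic genes, against 17.0% of the 10307 tested genes with a window. The E-box was found in 6 of the 42 (14.3%), namely Cdk4, Cdk6, E2f3, Ttk, Anapc13 and Cdk7, against 11.5% of tested genes with a window. The E2F motif was found in 5 (11.9%) against 4.43%. Of the 6 genes with an E-box, Ttk was higher and Cdk7 lower with the inhibitor with no overlap, and the other 4 overlapped between groups. Of all genes, with or without an E-box, 28.9% were higher and 28.3% lower without overlap. A relation between the E-box and such separation was not tested. A match is only a string of letters, and binding was not measured.

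The kinases and phosphatases that set the inhibitory phosphates of CDK1 differed by member. Wee1 (chr7:110122059-110143299) had 41.2 and 19.6 CPM with DMSO and 13.4 and 20.1 CPM with the inhibitor, with overlap. Pkmyt1 (chr17:23726336-23736735), the membrane-bound kinase, had 10.1 and 9.80 CPM against 17.3 and 18.5 CPM, with close replicates in each group and no overlap. Its log2 fold change of 0.85 (SE 0.47, edgeR adjusted p = 0.401) stayed between 0.80 and 0.94 with any library left out. Pkmyt1 overlaps Paqr4 in the annotation.

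Among the phosphatases, Cdc25c on chromosome 18 had 219 and 129 CPM with DMSO and 85.8 and 87.4 CPM with the inhibitor, without overlap. The log2 fold change was -1.01 (SE 0.39, edgeR adjusted p = 0.333) and -0.56 without DMSO replicate 1. Cdc25b (chr2:131186436-131198511) had 8.02 and 17.6 CPM against 22.5 and 17.9 CPM, so DMSO replicate 1 was low and the other 3 libraries were close. Cdc25c supplied 92.9% and 89.5% of CDC25 FPKM with DMSO and 81.1% and 85.4% with the inhibitor.

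**Figure D3:**
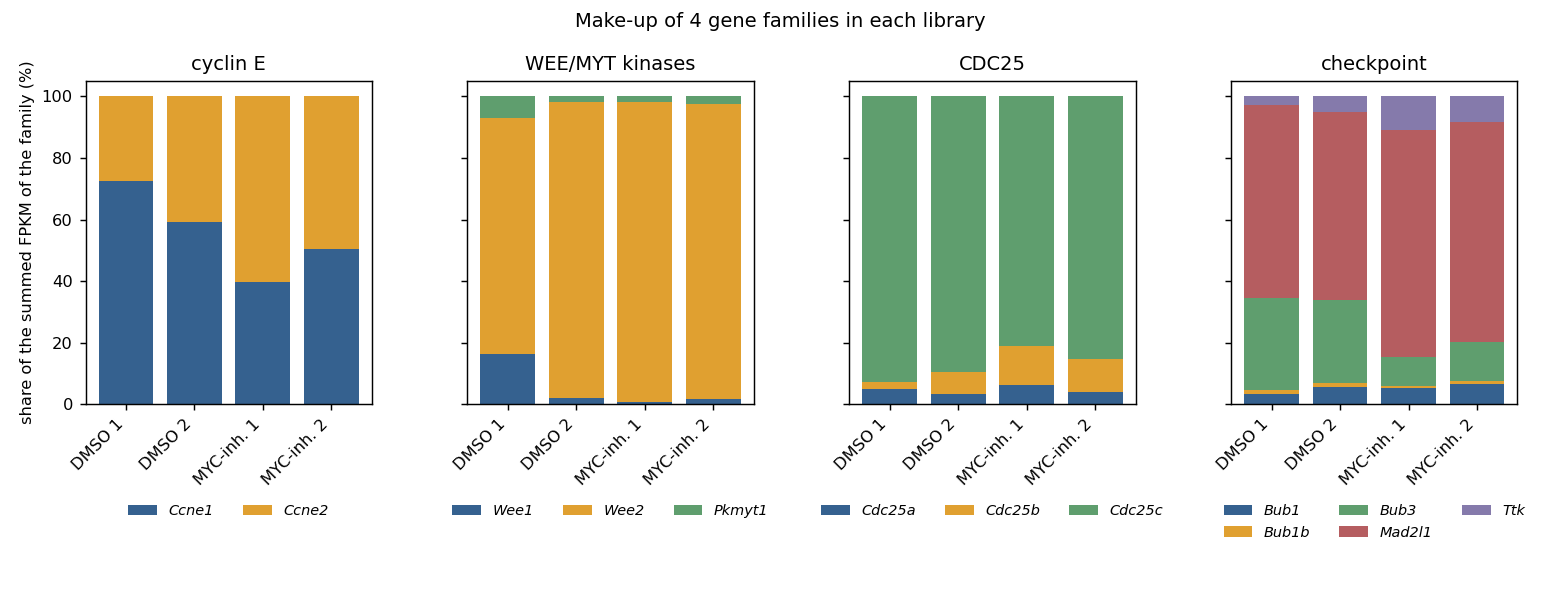
Share of each member in the summed FPKM of its family (y axis, percent) in each of the 4 libraries, for cyclin E, the WEE and MYT kinases, CDC25 and the spindle checkpoint. Bub3 takes 29.98% and 27.1% of the checkpoint FPKM with DMSO and 9.43% and 12.6% with the inhibitor, and Wee2 takes 76.5% of its family in DMSO replicate 1 and at least 95.8% in the other libraries.

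Aurka (chr2:172356190-172370886), the spindle pole kinase, had 690 and 372 CPM with DMSO and 194 and 268 CPM with the inhibitor. The groups did not overlap, and the log2 fold change of -1.20 (SE 0.44, edgeR adjusted p = 0.333) was -0.67 without DMSO replicate 1. Aurkb (chr11:69045624-69051664), the chromosomal passenger kinase, had 60.8 and 42.0 CPM against 23.9 and 56.7 CPM, so the MYC-inhibited replicates differed most and the groups overlapped. Of the Polo-like kinases, Plk1, which promotes mitotic entry, lay lower with the inhibitor (log2 fold change -0.65, and -0.39 without DMSO replicate 1) and Plk4, which duplicates centrioles, higher (0.66). Plk4 had 83.5 CPM in DMSO replicate 1 and 226 to 255 CPM in the other 3 libraries, and its value was 0.13 without that library.

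The largest difference by test among the 54 genes, and one that hardly depended on DMSO replicate 1, was at Bub3 (chr7:131560367-131571895), a WD-repeat protein that brings BUB1 and BUBR1 to kinetochores. It had 416 and 356 CPM with DMSO (386 ± 42.5, SD, n = 2) and 120 and 158 CPM with the inhibitor (139 ± 27.01, SD, n = 2). Both MYC-inhibited libraries were far below both DMSO libraries, and the replicates of each group were close. The log2 fold change was -1.47 (SE 0.37), and it ranged from -1.68 to -1.24 with any library left out. The edgeR adjusted p was 0.333, from an unadjusted p of 0.00437, and the DESeq2 adjusted p was 0.017.

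The other checkpoint genes had smaller differences or ones of opposite sign. Mad2l1, whose protein binds and restrains CDC20, had 709 and 651 CPM with DMSO and 765 and 733 CPM with the inhibitor, and the ratio of Mad2l1 to Bub3 FPKM was 2.09 and 2.25 with DMSO and 7.82 and 5.69 with the inhibitor (exact permutation p = 0.333). Ttk (chr9:83834651-83872390), the kinase MPS1 that starts checkpoint signalling, had 56.9 and 97.9 CPM with DMSO and 204 and 152 CPM with the inhibitor. Both MYC-inhibited libraries were above both DMSO libraries. Its log2 fold change was 1.20 (SE 0.41), with an edgeR adjusted p of 0.333 and a DESeq2 adjusted p of 0.0753, and 0.87 without DMSO replicate 1. The summed FPKM of the 5 checkpoint genes was between 682 and 767 in all libraries. Bub1 and Bub1b, the other 2, had log2 fold changes of 0.30 and -0.41, and of -0.01 and -0.29 without DMSO replicate 1. The Ttk promoter is shown because Ttk is the only mitotic gene of the 12 with an E-box in the window, at -45 and in capitals (GRCm38.p6, chr9:83834439-83834688, plus strand, 5′ to 3′). A CHR lies after the start site, outside the bases printed.
Ttk: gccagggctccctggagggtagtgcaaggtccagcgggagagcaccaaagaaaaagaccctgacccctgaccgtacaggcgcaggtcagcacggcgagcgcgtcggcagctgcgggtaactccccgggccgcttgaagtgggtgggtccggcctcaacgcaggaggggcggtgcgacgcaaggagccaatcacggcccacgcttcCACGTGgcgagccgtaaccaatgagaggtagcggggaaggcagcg

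**Figure D4:**
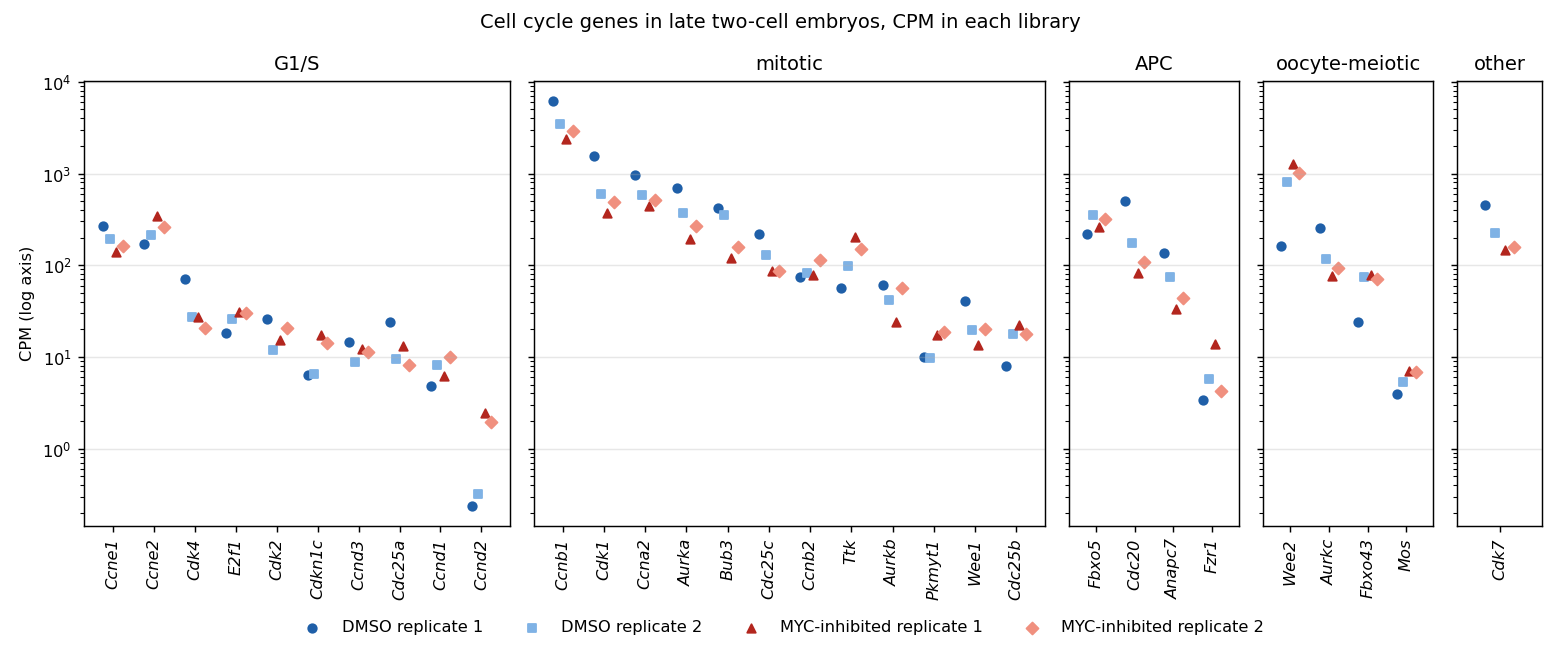
CPM on a log axis (y) of the 31 genes chosen by rule for values in every library, grouped by class, with 1 point for each of the 2 DMSO and 2 MYC-inhibited libraries. The levels span from 0.240 CPM for Ccnd2 to 6145 CPM for Ccnb1, both in DMSO replicate 1, and the groups are apart at Bub3, Cdkn1c and Pkmyt1 with close replicates in each.

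Cdc20 (chr4:118432901-118437343), which activates the APC in mitosis, had 502 and 174 CPM with DMSO (338 ± 232, SD, n = 2) and 81.3 and 109 CPM with the inhibitor (95.3 ± 19.9, SD, n = 2). The MYC-inhibited libraries were below both DMSO libraries, but the DMSO replicates lay farther apart than DMSO replicate 2 did from either of them. For Cdc20 the log2 fold change was -1.83 (SE 0.54, edgeR adjusted p = 0.333) and -0.85 without DMSO replicate 1, and the DESeq2 adjusted p was 0.0207. Cdc20 overlaps Elovl1 in the annotation. Its promoter is shown as that of the APC gene with the largest difference, with 1 CHR at -18 in capitals (GRCm38.p6, chr4:118437344-118437593, minus strand, 5′ to 3′).
Cdc20: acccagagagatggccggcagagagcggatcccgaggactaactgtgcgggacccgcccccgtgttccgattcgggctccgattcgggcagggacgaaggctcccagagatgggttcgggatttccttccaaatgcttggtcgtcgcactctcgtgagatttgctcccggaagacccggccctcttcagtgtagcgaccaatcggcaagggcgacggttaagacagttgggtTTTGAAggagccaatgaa

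Anapc7 (chr5:122422444-122444912), a scaffold subunit of the APC, had 137 and 75.1 CPM with DMSO (106 ± 43.5, SD, n = 2) and 33.5 and 43.5 CPM with the inhibitor (38.5 ± 7.05, SD, n = 2). The groups did not overlap. For Anapc7 the log2 fold change was -1.46 (SE 0.43, edgeR adjusted p = 0.333) and -0.95 without DMSO replicate 1, and the DESeq2 adjusted p was 0.0427. Of the other 9 Anapc subunits, Anapc10, Anapc11 and Anapc15 were lower without overlap, with log2 fold changes of -0.70, -0.40 and -0.60 that were -0.13, -0.22 and -0.10 without DMSO replicate 1, and 6 overlapped. Of all genes, 28.3% were lower without overlap.

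The second APC activator, Fzr1 (chr10:81366879-81378370), had 3.41 and 5.77 CPM with DMSO and 13.8 and 4.29 CPM with the inhibitor, so 1 MYC-inhibited library was high and the groups overlapped. Fbxo5 (chr10:5799158-5805465), the APC inhibitor EMI1, had 222 and 354 CPM against 262 and 318 CPM and a log2 fold change of 0.01, which was -0.27 without DMSO replicate 1. The ratio of Fbxo5 to Cdc20 FPKM was 0.435 in DMSO replicate 1, 2.003 in DMSO replicate 2, and 3.18 and 2.86 with the inhibitor.

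Of the oocyte-meiotic genes, Wee2 (chr6:40435246-40466815), the oocyte kinase that holds CDK1 inactive in prophase arrest, had 160 and 812 CPM with DMSO and 1284 and 1010 CPM with the inhibitor. The MYC-inhibited libraries were the highest, and DMSO replicate 1 was far below the other 3. The log2 fold change of 1.24 (SE 0.69, edgeR adjusted p = 0.406) was 0.51 without that library. Fbxo43 (chr15:36150060-36169940), the inhibitor EMI2 that keeps the APC off at metaphase II, had 24.0 CPM in DMSO replicate 1, 74.1 CPM in DMSO replicate 2, and 78.8 and 70.6 CPM with the inhibitor, and its log2 fold change was 0.02 without DMSO replicate 1. Mos (chr4:3870658-3872105), the kinase of metaphase II arrest, had 3.95 and 5.35 CPM against 7.10 and 6.87 CPM. By its median, a list of 20 stored oocyte transcripts moved with these genes: its centred median was -1.14 in DMSO replicate 1 and 0.10, 0.36 and 0.47 in the others. With the inhibitor 15 of 20 were higher, against 6973 of all 13549 genes. The median log2 fold change of 0.66 was 0.32 without DMSO replicate 1. Of the 5 lower ones, Dppa3 had 14533 and 7780 CPM with DMSO and 5889 and 6181 CPM with the inhibitor. The summed CPM of the list was 16376 and 13175 with DMSO and 16140 and 13569 with the inhibitor. The part of this list in the result was not tested.

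Aurkc (chr7:6995347-7003091), the Aurora kinase of meiosis and early embryos, had a difference of opposite sign to that of Wee2. It had 258 and 117 CPM with DMSO and 75.5 and 94.4 CPM with the inhibitor, without overlap. The log2 fold change of -1.14 (SE 0.46, edgeR adjusted p = 0.333) was -0.45 without DMSO replicate 1.

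Cdk7 (chr13:100697024-100730942), which phosphorylates the activation loop of other CDKs and the tail of RNA polymerase II, had 451 and 227 CPM with DMSO and 146 and 158 CPM with the inhibitor. The groups did not overlap, and the log2 fold change of -1.16 (SE 0.43, edgeR adjusted p = 0.333) was -0.57 without DMSO replicate 1. Its partners Ccnh and Mnat1, outside the 54, lay in the same direction, Mnat1 being picked after its values were seen. Ccnh had 183 and 80.4 CPM against 41.5 and 40.6 CPM (log2 fold change -1.68, DESeq2 adjusted p = 0.0246), and Mnat1 89.6 and 57.2 CPM against 21.3 and 34.4 CPM (log2 fold change -1.40, DESeq2 adjusted p = 0.0593). Without DMSO replicate 1 the values were -0.96 and -1.02. Cdk7 overlaps Ccdc125. Its promoter is shown for the E-box at -100, in capitals (GRCm38.p6, chr13:100730943-100731192, minus strand, 5′ to 3′).
Cdk7: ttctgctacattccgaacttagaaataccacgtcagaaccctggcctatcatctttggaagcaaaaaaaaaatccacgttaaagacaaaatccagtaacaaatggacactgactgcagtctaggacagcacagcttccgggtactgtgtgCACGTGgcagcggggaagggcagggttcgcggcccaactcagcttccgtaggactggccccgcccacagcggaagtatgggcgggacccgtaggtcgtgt

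Outside the 31 genes chosen by rule for values in every library, the other 23 of the 54 had log2 fold changes from -1.01 to 0.66, with 14 lower and 9 higher and a smallest edgeR adjusted p of 0.428. The 9 of them named above (Cdkn1b, Plk1, Plk4, Mad2l1, Bub1, Bub1b, Anapc10, Anapc11 and Anapc15) were picked after their values were seen.

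Of 93 further cell cycle genes tested, 55 were lower and 38 higher with the inhibitor, with a median log2 fold change of -0.17, which was -0.11 without DMSO replicate 1. The groups did not overlap for 40 of them in the lower direction, against 28.3% of all genes, and for 22 in the higher direction, against 28.9%. edgeR called 0 of them, with 4 higher and 20 lower at an unadjusted p under 0.05, where all genes gave 4.72% and 10.1%. DESeq2 called 6 lower (6.38% of those listed, against 3.23% of the 13549 genes) and 0 higher (against 0.478% of all genes with a count). These 6 were Ccnh, Lin52, Kif11, Mad2l2, Trip13 and Cdc14b. Trip13, the ATPase that remodels MAD2 and disassembles the checkpoint complex, had 119 and 55.5 CPM with DMSO and 14.7 and 22.7 CPM with the inhibitor, a log2 fold change of -2.22 (DESeq2 adjusted p = 0.00414) and of -1.55 without DMSO replicate 1. Mad2l2, which encodes REV7, a protein of translesion synthesis and of APC inhibition, had 292 and 128 CPM against 42.3 and 64.7 CPM (log2 fold change -1.97, DESeq2 adjusted p = 0.00945). Kif11, the motor that separates spindle poles, had 426 and 233 CPM against 92.7 and 125 CPM (log2 fold change -1.60, DESeq2 adjusted p = 0.0207). Lin52, a MuvB subunit, and Cdc14b, a phosphatase, had log2 fold changes of -1.60 and -1.64. Without DMSO replicate 1 the values were -1.24 for Mad2l2, -1.08 for Kif11, -0.95 for Lin52 and -1.05 for Cdc14b, so the direction was the same.

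By group, the 15 chromosomal passenger and spindle genes had the lowest median, -0.89, with 14 lower (against 48.5% of all genes), 13 of them without overlap (against 28.3%), and -0.50 without DMSO replicate 1. The 16 E2F, RB and DREAM genes had a median of 0.35, with 11 higher, and 0.17 without DMSO replicate 1. The 9 other checkpoint genes had a median of -0.44, with 7 lower, and -0.46 without it. The 6 APC subunits and E2 enzymes outside the symbol rule had a median of -0.57, and -0.39 without DMSO replicate 1. Of these 6, 5 were lower, all without overlap (83.3%, against 28.3% of all genes), and only Ube2s was higher. Of the E2 enzymes, which build ubiquitin chains with the APC, Ube2c had 1527 and 797 CPM against 532 and 565 CPM. Ube2s had 396 and 358 CPM against 494 and 477 CPM. Both were picked after their values were seen. The remaining groups had medians from -0.25 to 0.10.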

How the data were processed

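RNA-seq was analysed in 2 DMSO and 2 MYC-inhibited libraries, grouped by the labels. The authors made libraries with a SMART-Seq kit, aligned 150-base read pairs to mm10 with STAR 2.7.10, kept uniquely mapped reads, so that near-identical gene copies lose reads, and counted with RSEM 1.3.3; use of strand is not stated. The deposited expected counts are RSEM's estimated fragments per gene, not normalized. The deposited FPKM is scaled to effective length and library size; the deposited TPM was used only to check the unit, and the deposited effective lengths entered 1 alternative. No other column was used.

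Expected counts were rounded, filtered with filterByExpr (minimum count 10, total 15), scaled by TMM and tested with edgeR 4.0.16 (R 4.3.3), quasi-likelihood, robust, two-sided, with Benjamini-Hochberg adjustment over 13549 genes; the SE is the log2 fold change divided by the square root of F. The common biological coefficient of variation was 0.557. DESeq2 1.42.0 and limma 3.58.1 were alternatives, with other scalings, no filter, a replicate block and each library left out. The fit was checked on simulated counts with less spread between libraries than these data and no outlying library, so the check does not show how the fit performs here. PCR copies carried no molecular identifiers, so floors (3 counts) cover counting error only.

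Values in every library are given for 26 genes written down by name, for those called by DESeq2 and for those with a log2 fold change beyond 1 whose groups did not overlap. The genes, classes, marker lists and wider list were chosen with earlier results of these data known. Gene positions and promoter windows came from RefSeq (GRCm38.p6, the sequence of mm10).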

Additional observations from a re-analysis of the deposited data

How the results depend on the processing

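With 2 libraries per group, p-values rest on few degrees of freedom and a missed threshold does not show that levels were equal. edgeR called 0 genes higher and 0 lower. DESeq2 called 87 and 437 on all genes, 95 and 471 on the filtered genes and 83 and 429 with transcript lengths, and edgeR with no filter called 165 and 479. Leaving out 1 library gave 1 to 2148 higher and 1 to 2065 lower, the highest without DMSO replicate 2, where DMSO replicate 1 is the lone control and is assumed to vary like the MYC-inhibited libraries. Of the 54 genes, 3 were called lower in those 3 DESeq2 fits and with no filter, and of the wider list 6. Leaving out 1 library gave 0 to 5 of the 54 higher, 0 to 15 lower and 0 to 38 of the wider list, each highest without DMSO replicate 2. The causes were not tested.

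The labels do not say whether libraries with the same replicate number were paired. Deviations of same-numbered libraries from their group means correlated at -0.03, which cannot settle it with 2 libraries per group. With the replicate number as a block, edgeR called 12 genes higher and 32 lower, none of the 54; the G1/S median was 0.17 and Cdk2 was at 0.00048.

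The G1/S median, -0.04, was 0.14 with library totals, 0.31 and 0.23 with limma on log2(FPKM + 0.1) and log2(FPKM + 1), and 0.011 over genes of 1 class only. On leaving out 1 library, the G1/S median ranged from -0.19 to 0.75, the mitotic median from -0.82 to -0.18, the APC median from -0.49 to -0.018, and the oocyte-meiotic median from -3.61e-05, without MYC-inhibited replicate 2, to 0.36. Ccnd3 was -0.0018 and -0.0024 with DESeq2 on all and on filtered genes, -0.0025 with its size factors and -0.00012 with lengths, and Cdk2 was 0.10 with library totals and 0.13 and 0.11 with limma. With 1 library left out, Ccnd3 ranged from -0.31 to 0.43, Cdk2 from -0.54 to 0.59, Ccnd1 from -0.058 to 0.75, Cdc25a from -1.17 to 0.16, Aurkb from -1.11 to 0.19, Fzr1 from -0.059 to 1.58 and Fbxo5 from -0.27 to 0.38. Of 277 values of the 31 genes chosen by rule under the other settings, 257 kept direction and side of the threshold, 12 passed it in the same direction and 8 changed direction.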
